A study of Homo sapiens with 2 samples.

Results

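Antisense RNA genes that consist of a single exon were examined in the RNA bound by the splicing factor U2AF2. Of 58347 gene rows, 5443 carried the GENCODE 29 class antisense and lay off the Y chromosome, and 703 of those had exactly 1 exon after the exons of all their transcripts were merged. The choice used the annotation alone and no measured value. The data came from HEL, an established human erythroleukemia cell line, sampled as 2 biological replicates of 1 group. The sample descriptions name no treatment. U2AF2 was recovered with its RNA by enhanced crosslinking immunoprecipitation (eCLIP), in which ultraviolet light links a protein to the RNA it touches, RNase trims the RNA and the protected pieces are sequenced. Neither an input nor a control library was analysed here, so a count reflects both how much of an RNA was present and how much of it was bound, and these cannot be told apart. One label field of both samples gives the protein's name where the cell line belongs, and HEL was taken from the other fields.

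U2AF2 is the large subunit of the heterodimer U2AF. It binds the polypyrimidine tract, a stretch rich in C and U just upstream of a 3' splice site, and helps to bring the U2 snRNP to the intron. An antisense gene lies on the other strand of another gene, so its exon, read from the opposite strand, can hold the exons, introns and splice sites of that gene. A transcript of a single exon has no intron and therefore no 3' splice site of its own. For 608 of the 703 antisense genes a protein-coding gene lay on the other strand, and the one sharing most bases is called the opposite gene below. Which strand the authors' counting used is not given in the sources used here. For any single antisense gene, reads from its own strand and reads from the opposite gene cannot be told apart.

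Sequences of the opposite gene at some of the covered 3' splice sites show what lay inside these single exons. Each line gives the last 30 intron bases and the first 3 exon bases on the strand of the opposite gene (GRCh38, taken from the GENCODE 29 transcript of the antisense gene and reverse complemented), and capitals mark the longest unbroken run of C and T in the intron bases. The sites under AC037198.2, AL662797.1, ABALON, AC245140.2, AC138028.4, RBM5-AS1 and AC003681.1 are shown because these genes were among the 10 with the most counts. The sites under AC009948.3 and AC108451.2 are shown because their antisense genes held few or no counts. They were picked by hand, and other genes with no count cover sites with runs of, for example, 4 bases (C22orf23) or 16 (SLC5A9). U47924.2 was also among the 10, and its sites, with runs of 4, 6 and 7 bases, are not shown. The same holds for AC037459.3, whose 6 covered sites are not shown either. The lines are therefore no sample of the covered sites. Where a gene covered several sites of the principal transcript, the one with the longest run was picked, except for RBM5-AS1, where both are shown.
THBS1 exon 10, under AC037198.2, chr15:39588496-39588528, plus strand: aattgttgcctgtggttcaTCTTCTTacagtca
TUBB exon 4, under AL662797.1, chr6:30723310-30723342, plus strand: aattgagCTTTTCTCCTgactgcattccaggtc
BCL2L1 exon 2, under ABALON, chr20:31722346-31722378, minus strand: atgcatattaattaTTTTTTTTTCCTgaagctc
RPL10 exon 2, under AC245140.2, chrX:154398467-154398499, plus strand: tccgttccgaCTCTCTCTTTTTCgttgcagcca
PIEZO1 exon 42, under AC138028.4, chr16:88720281-88720313, minus strand: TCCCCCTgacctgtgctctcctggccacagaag
RBM5 exon 5, under RBM5-AS1, chr3:50099952-50099984, plus strand: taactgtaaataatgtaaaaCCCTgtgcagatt
RBM5 exon 6, under RBM5-AS1, chr3:50100502-50100534, plus strand: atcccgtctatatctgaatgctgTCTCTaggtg
MTMR3 exon 16, under AC003681.1, chr22:30017897-30017929, plus strand: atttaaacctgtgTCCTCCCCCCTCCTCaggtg
TTN exon 286, under AC009948.3, chr2:178550271-178550303, minus strand: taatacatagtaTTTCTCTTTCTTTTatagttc
ARNT2 exon 16, under AC108451.2, chr15:80580381-80580413, plus strand: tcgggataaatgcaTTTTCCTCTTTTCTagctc

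All 10 intron ends close with AG, the end of nearly every human intron. Exon numbers follow 1 principal transcript of each gene. The longest run was 7 bases at the only covered site of THBS1, 10 at that of TUBB and 14 at that of ARNT2, whose antisense gene held no count. Over all covered sites, runs were 12 and 16 bases in BCL2L1, 13 and 14 in RPL10, 4 and 5 in RBM5 and from 4 to 17 at the 16 sites of MTMR3. The 3 TTN sites under AC009948.3, which held 4 counts in all, had runs of 5, 9 and 14 bases. Over the 305 covered sites with a full window, in 175 antisense genes, 305 ended in AG, the median run was 8 bases (range 1 to 20), and pyrimidines made up a median of 70.0% (quartiles 65.0 and 80.0) of the bases 23 to 4 before the exon.

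The 2 libraries held 995428 and 1350116 counts on genes. Single-exon antisense genes took 56979 and 76550 of them, which is 5.72% (exact 95% binomial interval 5.68 to 5.77) in replicate 1 and 5.67% (5.63 to 5.71) in replicate 2, or 5.70% ± 0.0383 (SD, n = 2). Reads that the counting placed on no gene made up 97.3% ± 0.0477 (SD, n = 2) of uniquely mapped reads and enter no gene value here. The annotation and strand setting of the counting are not given, so such reads need not lie outside genes. Genes that mark the lineage of HEL gave few counts in their own rows, with 6 and 14 for the erythroid factor GATA1 and 0 and 2 for the platelet integrin ITGA2B. The platelet receptor gene GP1BA held 312 and 413. With rows this low, and with the strand unknown, they give no check of the cell label.

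A gene was called detected with at least 10 counts in each library. Detected genes numbered 328 of the 703 single-exon antisense genes (46.7%), beside 15.4% of all gene rows. Another 130 had no count in either library, where 3 counts would be 3.01 and 2.22 counts per 1000000 scaled gene counts (CPM). At the edge of the rule, 7 detected genes had exactly 10 counts in their lower library and 7 undetected ones had 9. Of the 4740 antisense genes with several exons, 36.4% were detected, and of 378 single-exon genes of the sense intronic class, which lie within an intron on the same strand as their host, 4.23%. With 1 group and genes that share loci, the differences between gene classes were not tested here or below. They are descriptions of these 2 libraries.

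Counts were concentrated in few genes. The single gene AC037198.2 held 7.85% ± 0.114 (SD, n = 2) of all counts on single-exon antisense genes, the leading 10 held 39.7% ± 0.292 and the leading 20 held 50.3% ± 0.277. Of these 20, 16 covered a 3' splice site of the opposite gene, 3 lay in the 5' part of it, 8 in the middle part and 9 in the 3' part, where the gene's span was divided into 3 parts of equal length. All 19 whose opposite gene had a row in the table held more counts per kb of exon than that gene, by at least 19.8-fold. Counts per kb are the counts of both libraries added and divided by the merged exon length.

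**Figure D1:**
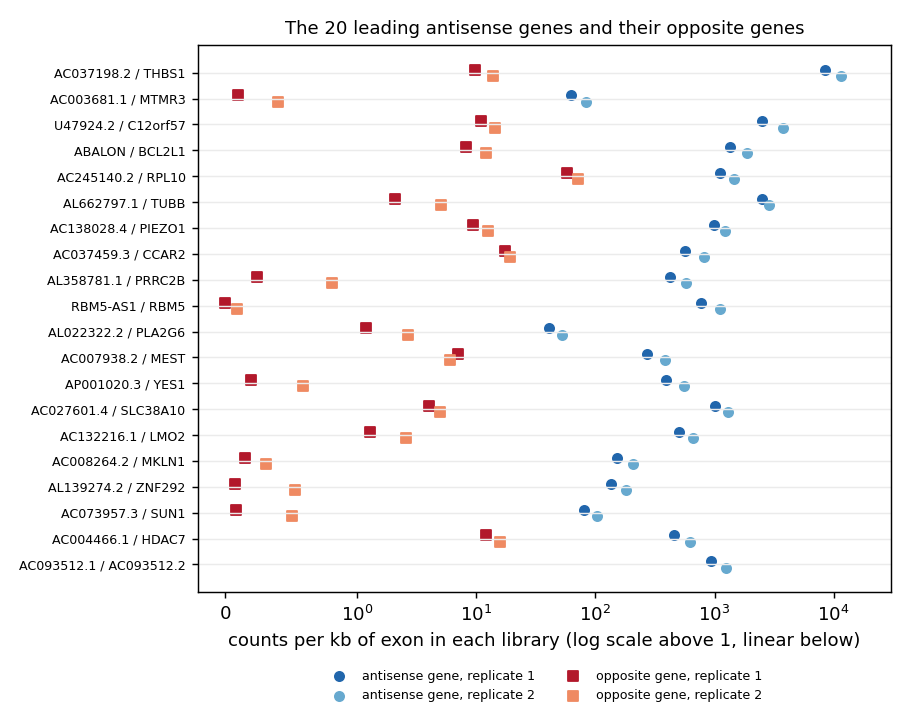
The 20 single-exon antisense genes with the highest mean CPM are shown in order, each with its opposite gene, and the horizontal axis gives counts per kb of exon in each library (logarithmic above 1). Circles for the antisense genes lie to the right of the squares for the opposite genes in all 19 pairs with both values, and the 2 libraries of each antisense gene lie close together.

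AC037198.2 (chromosome 15, 39588357 to 39588882, minus strand) is a 526-base exon inside THBS1, the gene of thrombospondin 1, an adhesive glycoprotein released by platelets. It held 4425 and 6068 counts, or 4471 ± 115 CPM (SD, n = 2) and 19949 counts per kb, while THBS1 itself held 89 and 126 counts, or 23.5 per kb. Both libraries placed AC037198.2 far above its opposite gene. It spans exon 10 of THBS1 with the 3' splice site printed above. FSIP1 also has an exon over it on the same strand, so those reads could carry either name.

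U47924.2 (chromosome 12, 6943508 to 6944604, minus strand) lies across C12orf57 and covers 3 of its 3' splice sites. With 2739 and 4154 counts it reached 6284 per kb, against 20 and 26 counts and 25.5 per kb for C12orf57. The small nuclear RNA gene RNU7-1, whose product acts in histone mRNA processing, also lies on its other strand. AL662797.1 (chromosome 6, 30723105 to 30723877, minus strand) covers the start of the last exon of TUBB, a beta-tubulin gene, and held 1934 and 2218 counts, or 5371 per kb, against 7 and 17 counts and 7.14 per kb for TUBB. Both antisense genes thus lay far above the gene they face in both libraries.

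ABALON (chromosome 20, 31721507 to 31723409, plus strand) faces BCL2L1, which encodes the apoptosis inhibitor BCL-XL. It held 2567 and 3541 counts, or 3210 per kb, and BCL2L1 held 27 and 40 counts, or 20.2 per kb. AC245140.2 (chromosome X, 154396878 to 154398816, minus strand) faces RPL10, a protein of the large ribosomal subunit, with 2161 and 2809 counts and 2563 per kb. RPL10 held 279 and 347 counts, or 130 per kb, the highest level among the opposite genes of these 20. Even here the antisense gene was higher in both libraries.

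AC138028.4 (chromosome 16, 88718615 to 88720459, plus strand) covers the 3' splice sites of exons 42, 43 and 44 of PIEZO1, a mechanically gated cation channel of red cells. Its 1815 and 2264 counts gave 2211 per kb, against 107 and 143 counts and 22.1 per kb for PIEZO1. RBM5-AS1 (chromosome 3, 50099603 to 50100988, minus strand) faces RBM5, an RNA-binding regulator of splicing. It held 1075 and 1551 counts, or 1895 per kb, and RBM5 held 0 and 1. This pair had the lowest opposite level of the 20. RBM6 also has an exon over RBM5-AS1 on the strand of RBM5, so reads there could carry its name or count as ambiguous.

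AC003681.1 (chromosome 22, 29978950 to 30028236, minus strand) is 49287 bases long and covers 16 annotated 3' splice sites of MTMR3, a phosphoinositide phosphatase gene. Its 3064 and 4140 counts ranked second, at 3072 ± 46.9 CPM (SD, n = 2), but its length brought it to 146 per kb. MTMR3 held 1 and 4 counts. An exon of HORMAD2-AS1 lies over AC003681.1 on the same strand. AC037459.3, across CCAR2, a regulator of apoptosis and the cell cycle, held 1557 and 2230 counts and covered 6 sites, with 114 and 126 counts for CCAR2.

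Other leading genes over 3' splice sites faced genes of varied function. AC007938.2 covers 5 sites of MEST, an imprinted gene, and held 716 and 1018 counts. AP001020.3, opposite the Src family kinase gene YES1, held 668 and 945, and AC004466.1, opposite the histone deacetylase gene HDAC7, held 498 and 668. AC093512.1 (482 and 652 counts, 2181 per kb) faces AC093512.2, whose row is not in the table used here, and ALDOA, the glycolytic aldolase gene. AL022322.2, over 7 sites of the phospholipase gene PLA2G6, spread 837 and 1061 counts over 20397 bases, which is 93.1 per kb. The same list therefore holds short exons with dense counts and long ones with sparse counts.

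Only 4 of the 20 covered no splice site of either kind. AL358781.1 held 1158 and 1563 counts and 1003 per kb within exon sequence at the 3' end of PRRC2B. AC008264.2 held 565 and 778 counts at the 3' end of MKLN1, the muskelin gene, and AC073957.3 held 539 and 704 in SUN1, a nuclear envelope gene. AC132216.1 lies wholly in an intron of LMO2, a transcriptional cofactor of blood formation, 10655 bases before the next 3' splice site, and held 584 and 766 counts, or 577 ± 3.31 CPM (SD, n = 2). LMO2 itself held 4 and 8 counts. High counts in this list were thus not limited to exons over a 3' splice site.

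The presence of an opposite protein-coding gene separated the levels most widely. In the following, a level is the median over all genes of a class, undetected ones included, of CPM per kb of exon, given as mean ± SD over the 2 libraries. The 608 with such a gene had 14.1 ± 0.843 CPM per kb (SD, n = 2) and 317 were detected, and they held 98.9% of the counts. The 95 without one had 0.331 ± 0.468 and 11 were detected. Of these, 14 had a gene of another class on the other strand, with 2.31 ± 0.555 and 5 detected. The 81 with no gene there had 0.255 ± 0.361 and 6 detected. GAS5-AS1 led these 95 with 282 and 352 counts, or 914 per kb, and faces GAS5, a non-coding host gene of small nucleolar RNAs. AC133644.2, with 24 and 28 counts, and AL135744.1, with 23 and 25, came next by counts per kb, so GAS5-AS1 stood alone at its level.

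Coverage of a splice site was the next comparison. The 176 antisense genes over a 3' splice site of the opposite gene had a level of 44.95 ± 1.27 CPM per kb (SD, n = 2), the 100 over a 5' splice site only had 18.0 ± 0.469, and the 332 over neither had 8.13 ± 0.00674. Each library gave the same order. Against neither, the log2 ratio of the 3' splice site class was 2.47, and 1.05 when only genes with a minimum of 10 counts per library were kept. Against a 5' site only it was 1.32, and 0.38 among antisense genes wholly inside the opposite gene. At the minimum of 10 counts per library it was 1.23, more than the 1.05 against neither. There the class over a 5' site only thus stood below neither, unlike over all genes. Those over a 3' splice site held 68.6% of all counts on single-exon antisense genes, and 116 of 176 were detected (65.9%), against 63 of 100 over a 5' site only and 138 of 332 over neither (41.6%). The classes overlapped widely: counts per kb ran from 9.04 to 321 between the quartiles over a 3' splice site and from 1.75 to 76.1 over neither. Their opposite genes also differed, with a median span of 36.2 kb over a 3' splice site, 51.5 over a 5' site only and 58.9 over neither. In that order, the opposite genes held a median of 13.1, 2.32 and 6.10 counts per kb of exon. Whether these differences bear on the levels was not tested.

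**Figure D2:**
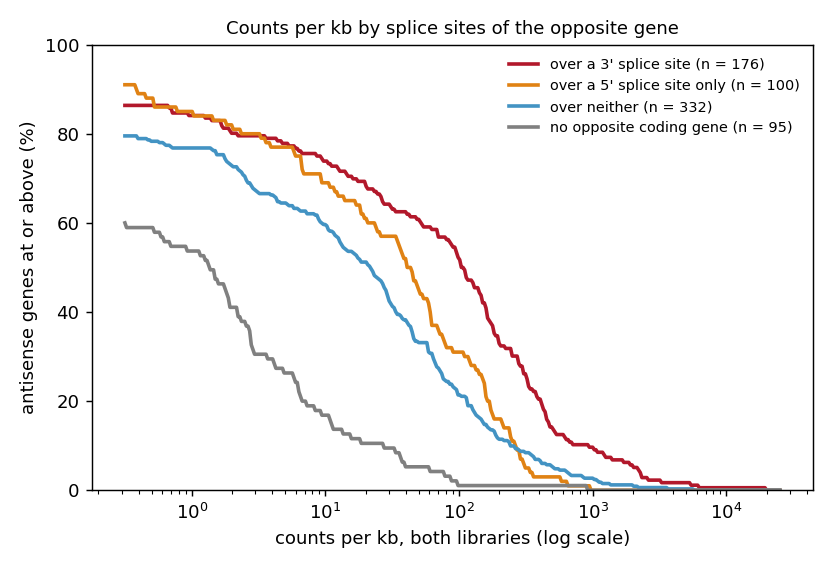
The vertical axis gives the percent of antisense genes at or above the counts per kb on the horizontal axis (logarithmic, both libraries added), with 1 line for each splice site class and 1 for genes with no opposite coding gene. The medians stand at 106 counts per kb over a 3' splice site, 42.0 over a 5' site only, 21.7 over neither and 1.36 with no opposite coding gene.

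The order between a covered 3' splice site and neither was present in each class of exon length. At up to 500 bases the levels were 34.1 ± 0.157 CPM per kb (SD, n = 2, 21 genes) over a 3' splice site and 9.81 ± 2.03 (120 genes) over neither. Above 500 and up to 1000 bases they were 75.2 ± 12.9 (62 genes) and 12.3 ± 1.28 (108 genes), and above 1000 and up to 2000 bases 47.1 ± 1.45 (42 genes) and 9.77 ± 0.212 (53 genes). Above 2000 bases both were lower, at 12.6 ± 0.0479 (51 genes) and 2.82 ± 0.0329 (51 genes). There the 31 genes over a 5' splice site only stood at 14.5 ± 0.250, above those over a 3' site. The number of covered 3' splice sites gave no steady order, with 44.6 ± 0.775 for 1 site (114 genes), 72.2 ± 2.55 for 2 (32 genes) and 37.9 ± 0.571 for 3 or more (30 genes).

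Among those over a 5' splice site only, 88 of 100 lay in the 5' part of the opposite gene. AL451085.2 led by counts per kb, with 319 and 442 counts and 952 per kb, opposite PYGO2, a Wnt pathway cofactor gene that held 10 and 9 counts. SHC1 also has an exon over AL451085.2 on the strand of PYGO2. AC145285.6, opposite ATXN2L, held 462 and 529 counts, and AL360270.3, opposite LRIF1, held 344 and 424. All 3 were below the 3 leading genes over a 3' splice site by counts per kb.

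Exon and intron content was compared next. Antisense genes over both exon and intron of the opposite gene had the highest level, 26.7 ± 1.22 CPM per kb (SD, n = 2, 289 genes), and held 78.8% of the counts. Those over exon only had 13.2 ± 0.388 (116 genes) and those over intron only 6.20 ± 0.582 (203 genes), of which 52 had no count at all. With exons taken from 1 principal transcript instead of all transcripts, exon only no longer stood above intron only (log2 ratio -0.046, against 1.09). The same ratio was 3.03 among antisense genes wholly inside the opposite gene, 1.71 above 500 and up to 2000 bases and 0.52 at a minimum of 10 counts per library. At that minimum the log2 ratio of exon and intron to intron only was 0.83, against 2.11 over all. Within the class over both exon and intron, the level was 41.8 ± 1.65 for the 164 that covered a 3' splice site, 18.7 ± 0.345 for the 91 over a 5' site only and 16.0 ± 1.80 for the 34 whose exon and intron parts met at neither kind of site counted here.

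The part of the exon also differed. The 238 antisense genes that overlapped coding bases of the opposite gene had a level of 43.6 ± 1.41 CPM per kb (SD, n = 2), and the 167 that overlapped untranslated exon only had 9.52 ± 0.192. These groups were not divided by splice site coverage, so the part of the exon and a covered site cannot be told apart here. AL136131.3 was an exception on the untranslated side: this 188-base exon at the 5' end of VEGFA, the vascular growth factor gene, held 501 and 575 counts, or 5723 per kb, the third highest density, while VEGFA held 20 and 24. AC015674.1 held 275 and 312 counts, or 2198 per kb, within untranslated exon sequence of KPNB1, the importin beta gene. On the coding side, AC027601.4, within an exon of the annotated SLC38A10 transcripts and over the last 3' splice site of the principal one, held 618 and 786, or 2302 per kb.

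Position along the opposite gene was measured from the midpoint of the overlap. The level was 10.5 ± 0.174 CPM per kb (SD, n = 2, 240 genes) in the 5' part, 21.0 ± 1.51 (122 genes) in the middle and 14.8 ± 1.19 (246 genes) in the 3' part. The middle was highest in both libraries and the 5' part lowest. These differences were smaller than those between the splice site classes, and detection was alike, at 50.8%, 54.9% and 52.0%. The log2 ratio of the 3' to the 5' part was 0.49 ± 0.0922 (SD, n = 2). It was 0.27 among antisense genes wholly inside the opposite gene and 0.26 among those over no 3' splice site. The log2 ratio of the middle to the 5' part was 1.00 ± 0.0798, and 0.27 ± 0.256 among those over no 3' splice site.

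Splice sites and position were not independent, since 92 of the 176 genes over a 3' splice site lay in the 3' part and 38 in the 5' part. Over a 3' splice site the levels were 41.6 ± 3.24 CPM per kb (SD, n = 2) in the 5' part, 73.0 ± 2.86 in the middle (46 genes) and 39.8 ± 0.327 in the 3' part. Over neither kind of site they were 6.34 ± 0.621 (114 genes), 10.3 ± 2.83 (69 genes) and 10.9 ± 1.505 (149 genes). In each part of the gene, antisense genes over a 3' splice site thus had a higher level than those over neither. Over exon only, the 51 antisense genes in the 3' part had 36.9 ± 2.77 and the 58 in the 5' part 7.46 ± 1.24, while over intron only the values were 4.67 ± 0.0119 (89 genes) and 6.53 ± 0.590 (56 genes).

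**Figure D3:**
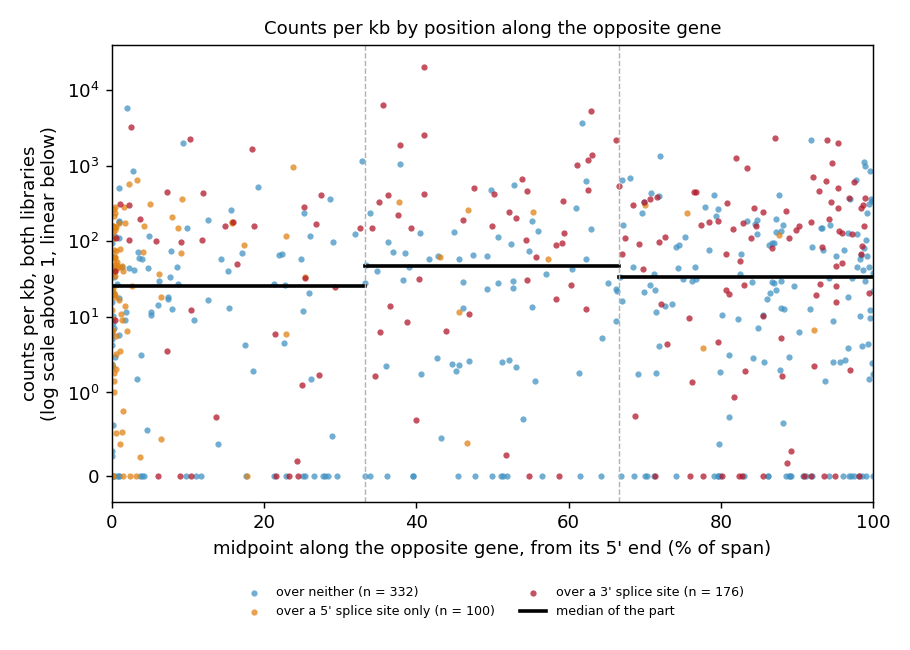
Each point is 1 antisense gene, placed by the midpoint of its overlap along the opposite gene (percent of the span from the 5' end) and by counts per kb (logarithmic above 1), coloured by the splice site covered. Black lines mark the median of each part, at 26.01, 47.1 and 33.3 counts per kb, and genes over a 5' splice site only gather at the left edge.

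Antisense genes within an intron were then ordered by the distance to the next 3' splice site downstream in the opposite gene, a division chosen after the values were seen. Within 200 bases of the site the level was 26.5 ± 3.13 CPM per kb (SD, n = 2, 20 genes), above 200 and up to 1000 bases 12.7 ± 2.30 (30 genes), above 1000 and up to 5000 bases 4.67 ± 0.0119 (61 genes) and beyond 5000 bases 2.86 ± 0.780 (73 genes). This median level was lower in each class farther from the site, in both libraries. Genes with no count numbered 8 of 20 in the nearest class, then 5 of 30, 13 of 61 and 23 of 73. Mean counts per kb did not follow the order of the medians, at 155, 57.5, 48.3 and 99.7 from the nearest to the farthest class. The 19 with no annotated 3' splice site downstream had 12.2 ± 2.37, so they did not continue that order.

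**Figure D4:**
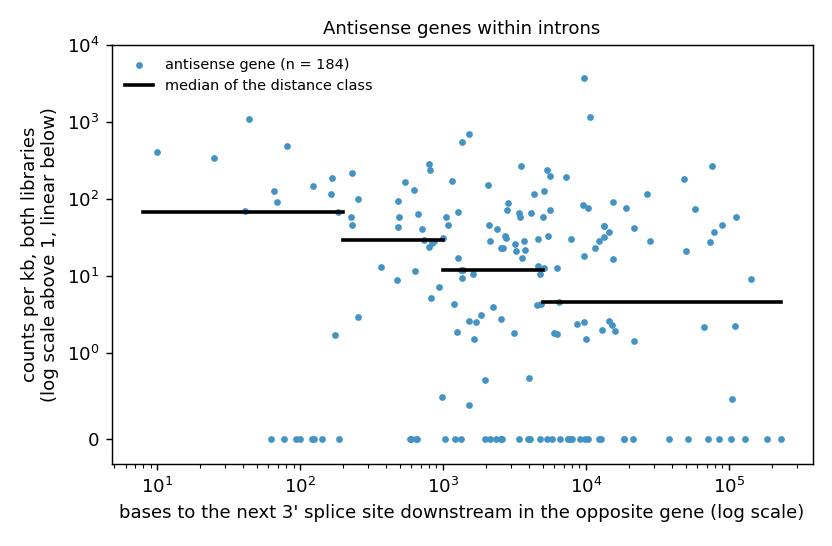
Each point is 1 antisense gene within an intron, with the distance to the next downstream 3' splice site of the opposite gene in bases (logarithmic) and counts per kb of both libraries (logarithmic above 1). Black lines mark the median of each distance class, at 67.6, 28.97, 11.7 and 4.55 counts per kb, and single genes with over 1000 counts per kb occur at both ends.

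The leading intronic genes showed both ends of that range. AC120498.10 ends 44 bases before a 3' splice site of TPSG1, a mast cell tryptase gene, and held 224 and 316 counts, or 1069 per kb, while TPSG1 had none. AL158147.1, only 75 bases long and 9751 bases from the next site of RCL1, a gene of ribosomal RNA processing, held 102 and 171 counts, or 3640 per kb. The microRNA gene MIR101-2 overlaps it on the other strand. AC132216.1 in LMO2, described above, reached 1166 per kb.

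Antisense and opposite gene were set side by side in 604 pairs. The antisense gene had more counts per kb in 64.5% ± 1.76 of pairs (SD over 2 libraries), and with both libraries added it was higher in 400, equal in 7 and lower in 197. In 232 pairs it was more than 10-fold higher. The medians were 31.5 counts per kb for the antisense genes and 6.01 for their opposite genes. It was the higher one in 70.0% ± 1.21 of 175 pairs over a 3' splice site, 75% ± 2.83 of 100 over a 5' site only and 58.4% ± 1.72 of 329 over neither. Opposite genes are longer and their exon length holds other parts of the transcript, so the 2 densities cover different sequence.

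Some pairs ran the other way. AC068338.3 held 2 and 5 counts opposite NEIL1, a DNA glycosylase gene with 3727 and 5037 counts, and AC022144.1 held none opposite CAPN12, a calpain gene with 1089 and 1445. Both pairs were chosen after their values were seen. In the muscle gene TTN, which held 3951 and 5756 counts, 5 single-exon antisense genes all covered 3' splice sites, and AC009948.4 and AC010680.2 had no count, AC010680.3 had 0 and 1, AC009948.3 had 2 and 2 and AC010680.1 had 3 and 3. The gene TTN-AS1 spans all 5 on the same strand, with an exon over AC009948.4, so reads there could carry its name or count as ambiguous. Altogether 20 of the 176 antisense genes over a 3' splice site had no count in either library, and besides TTN and CAPN12 they faced, among others picked here for their known function, the brain proteoglycan gene BCAN, the desmosomal gene DSC1, the junctophilin gene JPH3 and the complement protease gene MASP2.

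Antisense genes that share an opposite gene are not independent. The 608 faced 552 genes, of which 507 had 1 antisense gene, and 45 shared the other 101. In FAR2, a fatty acyl-CoA reductase gene, AC009318.2, which covers a 3' splice site, had 32 and 52 counts, and AC012150.2 (14 and 18), AC009318.3 (15 and 17) and AC009318.4 (3 and 5), all within introns, had fewer. In KIAA1671 AL022323.3, AL022323.5, AL022323.2 and AL022323.4 had at most 4 counts in a library, although AL022323.2 and AL022323.3 cover a site. In the protocadherin gene PCDHA1 AC005609.4 had 0 and 1 count and AC005609.2, AC005609.3 and AC010223.1 had none. Counts of the antisense genes were thus low throughout opposite TTN, KIAA1671 and PCDHA1, and uneven opposite FAR2.

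Opposite genes were also read by lists of lineage and function. The erythroid list had 1 antisense gene, AC138028.4 opposite PIEZO1, and the megakaryocyte and platelet list 1, AC037198.2 opposite THBS1, both described above. Of the lists foreign to HEL, the 2 neuronal ones, opposite the neurofilament genes NEFM (1 and 0 counts) and NEFL (none), were not detected, and neither were the 5 in TTN, the only ones of the muscle list. The hepatocyte list had AL161645.1 opposite the cytochrome P450 gene CYP2E1, with 88 and 138 counts, and AC069294.1 in CYP3A4 with none. The monocyte and granulocyte, T cell, B cell and glycolysis lists had none. These counts are too small to set a lineage against another.

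Among lists of general function, 3 of 3 antisense genes of the translation list were detected. Besides AC245140.2 they were AC112907.3, opposite the helicase gene EIF4A2 (491 and 571 counts), and AL391834.2, opposite the ribosomal protein gene RPS6 (70 and 131). Of the cytoskeleton list 2 of 3 were detected, AL662797.1 and TPM1-AS opposite the tropomyosin gene TPM1 (129 and 167), while AC006483.2 opposite ACTB, the beta-actin gene, had 0 and 1. The splicing factor list had AC130343.2 opposite PRPF8, a core spliceosome protein gene, with 23 and 44 counts. The extracellular matrix list had AC037198.2 and AC005046.1 opposite the laminin gene LAMB1 (11 and 18). Over all 608, the detected share was 52.1%, and no list was large enough to set apart from it.

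The libraries were compared last. An exact two-sided binomial test at the scaled library sizes, with Benjamini-Hochberg adjustment over all 8983 detected genes, called 2 of the 328 detected single-exon antisense genes, or 0.610%, beside 0.501% of all detected genes. U47924.2 was higher in replicate 2 by 0.20 on the log2 scale, with an adjusted p of 1.75e-05 in the exact binomial test. AL662797.1 was higher in replicate 1, at a log2 ratio of replicate 2 to replicate 1 of -0.21 and an adjusted p of 0.00198 in the exact binomial test. The test weighs counting error only and compares these libraries, not conditions. The libraries were within 1.5-fold of each other for 296 of the 328, and the median absolute log2 ratio was 0.16, against 0.21 over all detected genes.

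**Figure D5:**
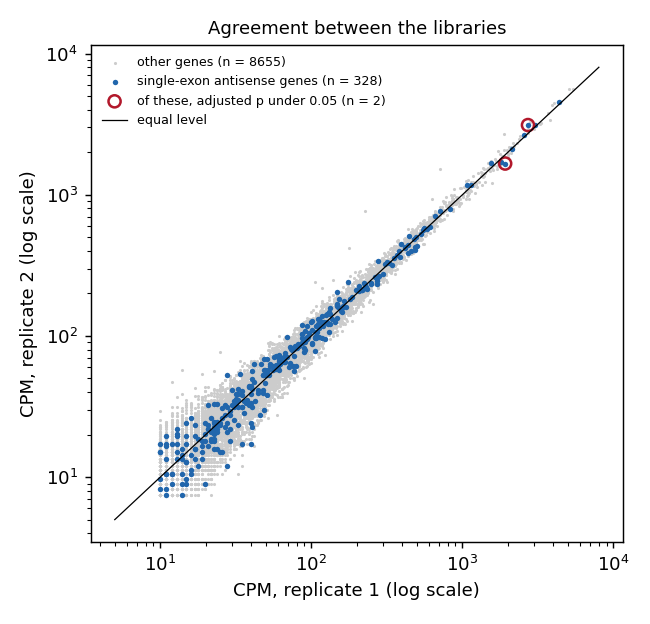
CPM in replicate 1 (horizontal) and replicate 2 (vertical), both logarithmic, for 328 detected single-exon antisense genes in blue and other detected genes in grey, with the line of equal level. The 2 antisense genes that differed past the threshold, U47924.2 and AL662797.1, are ringed and lie close to the line.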

How the data were processed

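U2AF2 eCLIP libraries of 2 biological replicates of HEL cells were read as raw counts per gene, deposited by the authors as whole numbers in 1 table. Cutadapt, STAR 2.7.0f and GRCh38.p10 were used, per the submitters' processing notes. The sources used here do not give the annotation, strand setting or removal of duplicates behind the counts. Remaining duplicates would narrow the intervals unduly, and the strand setting decides which of 2 overlapping genes receives a read. Tallies that name no gene (no feature, ambiguous, multimapping, unmapped) held 98.3% ± 0.0132 (SD, n = 2) of all reads and were left out.

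Genes were matched to GENCODE 29 by identifier without version. For 701 of the 703 antisense genes the version was also the same. Position came from the whole span of the opposite gene, the one sharing most bases. Exon and intron came from its exons merged over all transcripts, coding or not. Splice sites came from its protein-coding transcripts only. Exon lengths ranged from 68 to 91667 bases (median 802). Of the 608 with an opposite coding gene, 46 had several and 451 lay wholly inside it. Another gene's exon lay on the same strand over 19 of the 703. For 4 the opposite gene had no row.

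Libraries were scaled by TMM in edgeR 4.0.16 (R 4.3.3), with factors 1.01 and 0.987. Python 3.11.15 with scipy 1.17.1, numpy 2.4.6 and pandas 2.3.3 gave the exact binomial test, checked on simulated counts, and the class medians, and matplotlib 3.10.9 the figures. The simulated counts held counting error only, so that check cannot speak to further spread between replicates. Intervals and the 3-count floor cover counting error only. DESeq2 1.42.0 size factors were an alternative. Named genes were the 20 with the highest CPM, the 10 with the most counts per kb (minimum 50 counts per library), the 3 densest of each class (minimum 10 counts per library), those called between the libraries, the extremes of 14 lists of opposite genes, and all in the opposite genes with most antisense genes. Not every gene so chosen is described, and the result of 1 list is not reported here. The genes, lists and rules were chosen with earlier results of these data known.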

Additional observations from a re-analysis of the deposited data

How the results depend on the processing

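No paired analysis was possible because the 2 libraries form 1 group. The log2 ratios computed between the parts, exon and intron classes and splice site classes kept their sign under the alternatives run for them. The exception was exon only against intron only with exons of 1 transcript (-0.046, against 1.09). A 5' splice site only was not itself set against neither. The other class levels had no alternatives. The log2 ratio over a 3' splice site against neither (2.47) was 1.05 at a minimum of 10 counts per library, 2.29 wholly inside the opposite gene, 2.71 with the longest antisense gene per opposite gene, 2.56 with no other gene on the own strand and 2.56 at 200 bases or more. Against a 5' site only (1.32) it was 0.38 wholly inside and 1.23 at that minimum, where a 5' site only stood below neither. Exon and intron against intron only (2.11) gave 0.83 at that minimum, 2.66 wholly inside and 1.58 over no 3' splice site. The 3' against the 5' part (0.49) gave 0.66 at that minimum, 0.27 wholly inside, 0.72 with the opposite gene of shortest span, 0.26 over no 3' splice site and 0.25 above 500 and up to 2000 bases. The middle against the 5' part (1.00) gave 0.27 over no 3' splice site. The settings over no 3' splice site and above 500 and up to 2000 bases were chosen after seeing the data. The share of counts (5.70%) was 4.89% with no other gene on the own strand, 178 genes (328) were detected at 50 counts, and the antisense gene was higher in 75% of pairs (64.5%) when the span of the opposite gene replaced its exon length. Why these values moved was not tested. Without either replicate the values ranged from 5.67 to 5.72% for the share, 337 to 352 genes detected, 0.43 to 0.56 for the 3' against the 5' part, 1.97 to 2.25 for exon and intron against intron only, 2.44 to 2.50 for the 3' splice site against neither, and 63.2 to 65.7% of pairs. Calls between libraries numbered 2, beside 45 over all genes. With 20 counts over both libraries they numbered 3, beside 111 over all genes. Low counts limit single genes: 130 of 703 had none.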

Other observations

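Base composition went with the counts only weakly. Across the 608 single-exon antisense genes with an opposite coding gene, which share libraries and in part loci, Spearman's rho with counts per kb was 0.087 for the pyrimidine percent on the opposite strand, 0.030 for GC percent and -0.057 for exon length, and -0.19 for the span of the opposite gene. Over the same 608, rho was 0.19 for the percent of the overlap that was exon of the opposite gene. Across the 175 with a full window at a covered 3' splice site, rho was 0.054 for the longest run of C and T and 0.12 for the T percent. Values this weak in sparse counts are no finding. Runs of at least 12 pyrimidines occurred 0.994 times per kb on the opposite strand and 0.816 times on the antisense gene's own strand.

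The 134 antisense genes over the start of the opposite gene had a level of 9.13 ± 0.121 CPM per kb (SD, n = 2), against 15.6 ± 1.02 for the 474 others, and the 30 over its end had 12.3 ± 2.04.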
